A study of Mus musculus with 36 samples.

Results

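Ccnd1, Ccnd2, Ccnd3, Cdk4, Cdk6, Ccne1, Ccne2, Cdk2, Rb1 and Rbl1 encode the D-type and E-type cyclins, their kinase partners and 2 of the retinoblastoma family of pocket proteins. They were taken by symbol from the deposited expression table, which holds each of the 10 once among 19909 genes. All 10 passed the filter on low values in every model fitted here. RNA was measured in 36 libraries, all from C57BL/6 mice, with an age of 8 weeks and the brain subependymal zone, the neurogenic niche along the lateral ventricles, given for the tissue. Of these, 28 came from 8 populations sorted by flow cytometry directly from tissue homogenate, named qNSC, pNSC, aNSC and NPC1 (4 libraries each) and NPC2, NB1, NB2 and Other (3 each). The other 8 came from neurosphere cells of the same zone, grown unattached with EGF and FGF, loaded with the dye DFFDA at 2 ug/ml and cultured for 4 days before the sort into DFFDA_H and DFFDA_L (4 libraries each). The neurosphere cells were at passage 4. The series describes these 2 populations only as differing in their proliferative kinetics. No genotype, mutation or other treatment separates the groups in the labels. The names are not spelled out, the sorting gates are not given, and "biological replicate" is not tied to separate animals or cultures, so each p-value reflects only the scatter of the libraries at hand.

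Cells pass from G1 into S phase when cyclin D with CDK4 or CDK6, and then cyclin E with CDK2, phosphorylate the pocket proteins. A pocket protein that is not phosphorylated binds E2F factors and holds back genes of DNA replication. Phosphorylation releases E2F, and several of the genes described here, among them Ccne1 and Rbl1, are themselves known E2F targets. In the adult subependymal zone quiescent stem cells divide rarely, activated stem cells and transit progenitors divide often, and neuroblasts leave the cycle as they mature.

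Values are the authors' log2 expression values, on a scale that resembles log2 CPM (counts scaled to library size) and that has been brought to the same distribution in every library. Differences are log2 differences from limma with their standard error (SE), and a gene is called higher or lower where the Benjamini-Hochberg adjusted p over all genes of that comparison is under 0.05. Each fit used 1 spread per gene over all its groups. It held the 28 fresh libraries for fresh comparisons, the 8 neurosphere libraries for DFFDA_H minus DFFDA_L, and all 36 otherwise. An SE is thus not the scatter of the groups named alone, and it can be too large or too small for them. For Ccne1 the standard deviation (SD) was 1.90 in qNSC and 0.14 in aNSC. Every library has the same highest value, 13.26, so a gene that reaches it cannot be seen to go higher. Fewer cells of a type and less RNA per cell cannot be told apart in such bulk samples. Total reads are not given. Deeper libraries have more distinct values among low genes, and below the median gene there were 290 to 427 of them in the neurosphere libraries and 56 to 213 in the fresh ones. Among the fresh ones qNSC had 100 to 145, pNSC 115 to 208 and aNSC 183 to 213. Summed on the linear scale, 8 markers of quiescent stem cells and astroglia ran from 21785 to 23835 in qNSC and 1342 to 2559 in aNSC, and 7 neuroblast markers from 111 to 188 in qNSC and 7130 to 8367 in NB2. Microglial markers (10 genes) reached 339 to 728 in qNSC, 526 to 953 in pNSC and 256 to 379 in aNSC. Oligodendrocyte markers (5 genes) ran from 427 to 653, 396 to 564 and 204 to 252 in the same populations. Mural cell markers (5 genes) ran from 120 to 163, 22.3 to 147 and 1.11 to 5.91. The part of these markers in the differences described below was not tested. Replicate 1 of qNSC stood apart by its high floor, the value shared by its lowest genes (-2.18, with 3932 genes at it), and replicate 1 of pNSC by a sum of 1388 for the neuroblast markers against 434 to 604 in the other pNSC libraries. Among pNSC, aNSC and qNSC no call of the 10 genes was lost without either library, other than that of Ccnd3 in aNSC minus pNSC without pNSC replicate 1.

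**Figure D1:**
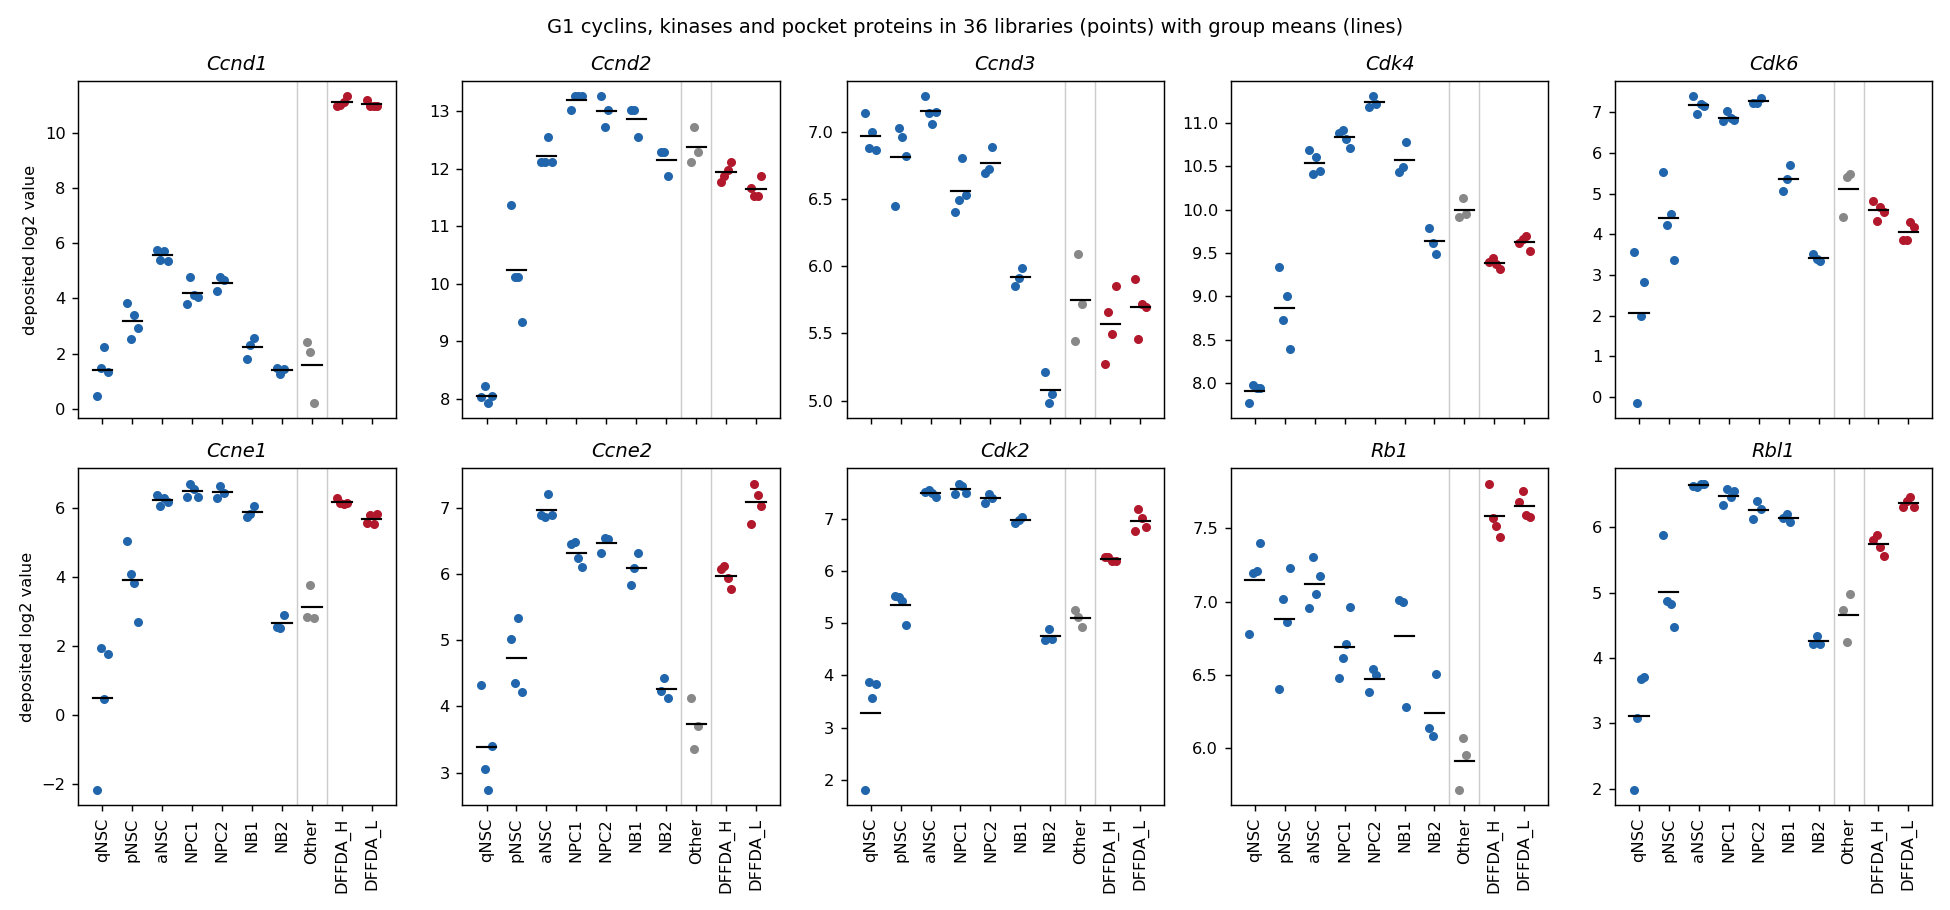
The 10 genes in all 36 libraries, with the deposited log2 value on the vertical axis (each panel has its own range) and the population on the horizontal axis. Points are libraries (blue for the 7 named fresh populations, grey for Other, red for neurosphere cells) and lines are group means. Ccnd1 lies near 11 in neurosphere cells and at most at 5.75 in any fresh library.

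The D-type cyclins are the growth-factor-responsive partners of CDK4 and CDK6, and the 3 genes had 3 different patterns. Ccnd2 was the main D cyclin transcript per unit of length in every fresh population, Ccnd1 became prominent only in neurosphere cells among the 10 populations measured, and Ccnd3 was lowest in NB2. Ccnd1 lies on chromosome 7 (144929931 to 144939925, minus strand, GRCm38). It stood at 0.47, 1.49, 2.25 and 1.34 in the 4 qNSC libraries, 3.84, 2.52, 3.40 and 2.93 in pNSC and 5.75, 5.39, 5.71 and 5.36 in aNSC. It stood at 3.79, 4.77, 4.14 and 4.06 in NPC1, 4.26, 4.79 and 4.66 in NPC2, 1.80, 2.32 and 2.57 in NB1 and 1.49, 1.27 and 1.43 in NB2. The qNSC, pNSC and aNSC libraries did not overlap, aNSC was the highest fresh population, and NB2 lay inside the qNSC range. In neurosphere cells the gene reached 10.97, 11.00, 11.10 and 11.31 in DFFDA_H and 11.18, 10.97, 10.97 and 10.97 in DFFDA_L. These ranges overlapped with each other and lay far above every fresh library.

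Ccnd1 was 5.47 ± 0.33 (SE) higher in DFFDA_L than in aNSC (limma adjusted p = 1.11e-15) and 9.71 ± 0.33 higher in DFFDA_H than in qNSC (limma adjusted p = 4.08e-22). Between DFFDA_H and DFFDA_L it differed by 0.07 ± 0.09, which did not pass (limma adjusted p = 0.528, 95% interval -0.12 to 0.26). The exons of Ccnd1 overlap those of LTO1 (Oraov1 in the deposited table), on the opposite strand, over 1100 bases or 23.4% of its exonic length, and the library kit does not mark strand. That neighbour had group means of 9.63 in DFFDA_H and 9.38 in DFFDA_L against 3.75 to 4.77 in the fresh populations, and reads from the shared stretch cannot be told apart.

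Ccnd2 lies on chromosome 6 (127125162 to 127152193, minus strand). It was measured at 8.03, 8.22, 7.93 and 8.04 in qNSC, 11.37, 10.11, 10.11 and 9.34 in pNSC and 12.12, 12.12, 12.55 and 12.12 in aNSC. The later fresh populations gave 13.02, 13.26, 13.26 and 13.26 in NPC1, 13.26, 12.72 and 13.02 in NPC2, 13.02, 13.02 and 12.55 in NB1 and 12.30, 12.30 and 11.87 in NB2. It was thus at the scale's ceiling in 3 of 4 NPC1 libraries and 1 of 3 NPC2 libraries, and its differences with those groups are bounded by that ceiling. The qNSC libraries lay below all others. NB2 kept a level 4.10 ± 0.27 above qNSC (limma adjusted p = 6.02e-13), in contrast with Ccnd1, which differed between these 2 populations by 0.01 ± 0.42 (limma adjusted p = 0.989, 95% interval -0.85 to 0.87). Neurosphere cells held 11.77, 11.87, 11.99 and 12.12 in DFFDA_H and 11.67, 11.52, 11.52 and 11.87 in DFFDA_L.

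Ccnd3 lies on chromosome 17 (47505051 to 47599691, plus strand) and varied least of the D cyclins, with group means between 5.08 and 7.15. Its libraries ran from 6.86 to 7.14 in qNSC, 6.45 to 7.03 in pNSC, 7.06 to 7.26 in aNSC, 6.40 to 6.81 in NPC1 and 6.69 to 6.89 in NPC2. They ran from 5.85 to 5.99 in NB1 and 4.98 to 5.21 in NB2, and from 5.27 to 5.85 in DFFDA_H and 5.46 to 5.91 in DFFDA_L. The qNSC, pNSC and NPC2 ranges overlapped, aNSC lay above pNSC, NPC1 and NPC2, NB1 lay below all of these and NB2 below NB1. Unlike the other D cyclins, Ccnd3 was lower in both comparisons of neurosphere with fresh cells. The log2 differences were -1.46 ± 0.14 in DFFDA_L minus aNSC and -1.40 ± 0.14 in DFFDA_H minus qNSC (limma adjusted p = 3.55e-11 and 7.74e-11). Ccnd2 was lower in DFFDA_L than in aNSC (-0.59) and higher in DFFDA_H than in qNSC (3.88). The labels do not match either neurosphere population to a fresh one.

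Per kilobase of exonic length the makeup of the D cyclin pool could be compared between genes. Ccnd2 made up 65.4% ± 3.38 of the linear D cyclin sum in qNSC, 88.5% ± 5.36 in pNSC, 95.1% ± 0.735 in aNSC and 98.5% ± 0.102 in NPC1 (mean ± SD, n = 4 each). It made up 99.1% ± 0.158 in NB2 (n = 3). Ccnd3 supplied 33.2% ± 3.29 in qNSC, its largest share, and 10.1% ± 5.02 in pNSC, where single libraries ran from 3.38% to 15.5%. Its union of exons is 8775 bases and its longest transcript 3858, against 9409 and 6330 for Ccnd2. The size of these shares thus rests on the length chosen, and shares by the longest transcript were not computed. Ccnd1 supplied at most a mean of 1.87% in any fresh population, that of aNSC, but 52.4% ± 0.728 in DFFDA_H and 56.1% ± 3.21 in DFFDA_L (n = 4 each). With the longest transcript as the length, the log2 ratio of Ccnd1 to Ccnd2 moved to -0.083 in DFFDA_H, against 0.16 with the union of exons, so which of the 2 leads there rests on the length chosen.

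**Figure D2:**
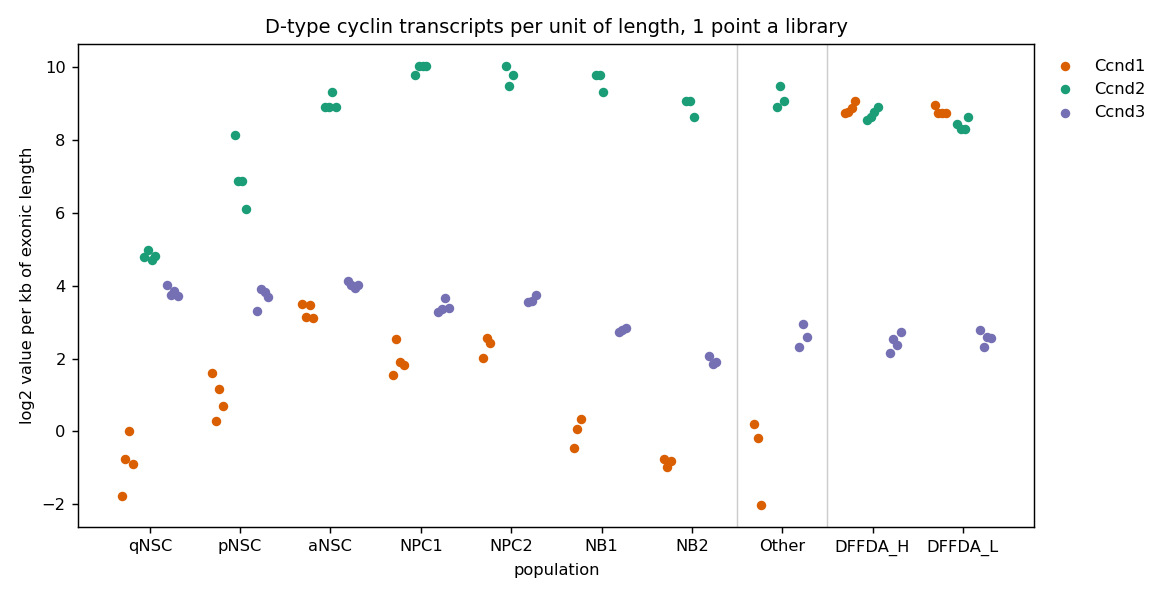
D-type cyclins per kilobase of exonic length (log2, vertical axis) in every library of the 10 populations, with colours for the 3 genes. In the 8 neurosphere libraries Ccnd1 and Ccnd2 lie side by side, while in the fresh libraries Ccnd2 lies above Ccnd1, by a mean of 5.67 log2 units in qNSC.

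CDK4 and CDK6 are the catalytic partners of cyclin D. Both transcripts were higher in aNSC than in qNSC and lower in NB2 than in NB1, but Cdk6 moved over a wider range. Cdk4 lies on chromosome 10 (127063534 to 127067920, plus strand) and was measured at 7.77, 7.97, 7.93 and 7.94 in qNSC, 9.34, 8.72, 9.0 and 8.39 in pNSC and 10.69, 10.41, 10.61 and 10.45 in aNSC. Its highest libraries were those of NPC2 at 11.18, 11.31 and 11.22, against 10.88, 10.93, 10.81 and 10.72 in NPC1. Cdk4 then stood at 10.43, 10.49 and 10.78 in NB1 and 9.79, 9.62 and 9.49 in NB2. The NPC2 libraries lay above the NPC1 libraries without overlap, and the difference of 0.40 ± 0.14 did not pass (limma adjusted p = 0.236). The SD of Cdk4 was 0.09 in NPC1 and 0.06 in NPC2 but 0.40 in pNSC, which is in the same fit. With only NPC1 and NPC2 fitted the difference passed (limma adjusted p = 0.0476).

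Cdk6 lies on chromosome 5 (3341485 to 3531008, plus strand). Its qNSC libraries scattered widely at 3.56, -0.14, 1.98 and 2.83, against 5.54, 4.23, 4.49 and 3.37 in pNSC and 7.39, 6.94, 7.19 and 7.16 in aNSC. It was at 6.78, 7.02, 6.85 and 6.81 in NPC1, 7.23, 7.21 and 7.34 in NPC2, 5.05, 5.35 and 5.69 in NB1 and 3.51, 3.38 and 3.34 in NB2. One qNSC library overlapped the pNSC range, and the 2 later steps separated without overlap, NPC2 above NB1 and NB1 above NB2. In neurosphere cells Cdk6 was at 4.82, 4.32, 4.66 and 4.55 in DFFDA_H and 3.87, 3.85, 4.30 and 4.18 in DFFDA_L, and all DFFDA_H libraries lay above those of DFFDA_L. Cdk6 was lower in DFFDA_L than in aNSC, with a log2 difference of -3.13 ± 0.43 (limma adjusted p = 1.13e-07). Per unit of length Cdk4 held at least 97.8% of the summed Cdk4 and Cdk6 in the mean of each of the 10 populations, and Cdk6 had its largest share, 2.2% ± 0.123, in aNSC (n = 4). The exons of Cdk4 share 19.7% of their length with Tspan31 on the opposite strand. Tspan31 averaged 7.40 in aNSC and 8.36 in qNSC, the reverse order to Cdk4. In neurosphere cells Cdk4 was at 9.39, 9.45, 9.38 and 9.32 in DFFDA_H and 9.61, 9.67, 9.69 and 9.52 in DFFDA_L, with no overlap, and Tspan31 averaged 8.93 in DFFDA_H and 8.58 in DFFDA_L. The part of shared reads in the Cdk4 values was not tested.

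Cyclin E binds CDK2 late in G1. Both E cyclins and Cdk2 were lowest in qNSC, high from aNSC to NB1 and lower again in NB2, and the 2 cyclins parted in neurosphere cells. Ccne1 lies on chromosome 7 (38097984 to 38107534, minus strand). It stood at -2.18, 1.94, 0.47 and 1.76 in qNSC, 5.03, 4.07, 3.82 and 2.68 in pNSC and 6.37, 6.05, 6.28 and 6.16 in aNSC. It was at 6.32, 6.70, 6.55 and 6.31 in NPC1, 6.29, 6.63 and 6.41 in NPC2, 5.74, 5.82 and 6.05 in NB1 and 2.54, 2.51 and 2.89 in NB2. The value of -2.18 in qNSC replicate 1 is that library's floor, the only value of any of the 10 genes at a floor. Without that library the difference of pNSC minus qNSC was 2.51 in place of 3.40, and that of aNSC minus qNSC 4.83 in place of 5.72. Both passed with and without it, and every pNSC library lay above every qNSC library.

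Ccne2 lies on chromosome 4 (11191351 to 11204779, plus strand). It stood at 4.32, 3.05, 2.74 and 3.40 in qNSC, 5.01, 4.35, 5.33 and 4.21 in pNSC and 6.89, 6.86, 7.21 and 6.89 in aNSC. It was at 6.45, 6.48, 6.23 and 6.10 in NPC1, 6.31, 6.55 and 6.52 in NPC2, 5.83, 6.09 and 6.32 in NB1 and 4.23, 4.43 and 4.13 in NB2. Among the fresh populations its highest mean was in aNSC, whose libraries lay above all NPC and NB libraries, while Ccne1 had its highest mean in NPC1. In neurosphere cells Ccne1 gave 6.28, 6.13, 6.10 and 6.13 in DFFDA_H and 5.57, 5.77, 5.54 and 5.81 in DFFDA_L. Ccne2 gave 6.07, 6.12, 5.94 and 5.77 in DFFDA_H and 6.75, 7.36, 7.20 and 7.02 in DFFDA_L. Neither gene's ranges overlapped, and the directions were opposite, with Ccne1 higher and Ccne2 lower in DFFDA_H.

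Per unit of length Ccne1 made up 59.9% ± 2.45 of the 2 E cyclins in DFFDA_H and 33.2% ± 3.84 in DFFDA_L (mean ± SD, n = 4 each). It made up 59.3% ± 3.33 in NPC1 and 43.9% ± 2.90 in aNSC (n = 4 each), and 30.1% ± 5.07 in NB2 against 53.1% ± 1.75 in NB1 (n = 3 each). The NPC1 and aNSC libraries did not overlap, nor did those of NB2 and NB1. In Ccne2, 17.4% of the exonic length is shared with Ints8 on the opposite strand. Ints8 averaged 5.93 in DFFDA_H and 6.95 in DFFDA_L, in the same direction as Ccne2, and 7.71 in aNSC against 6.03 in qNSC. The part of shared reads in the Ccne2 values was not tested.

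**Figure D3:**
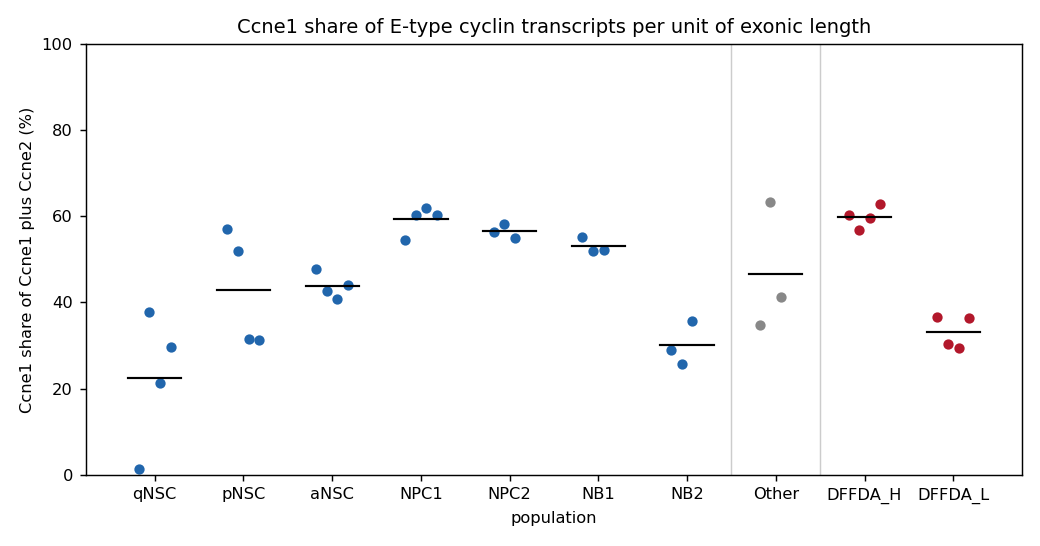
Share of Ccne1 in the linear sum of Ccne1 and Ccne2 per unit of exonic length (percent, vertical axis) for each library (points; blue for named fresh populations, grey for Other, red for neurosphere cells) and group mean (lines). DFFDA_H averaged 59.9% and DFFDA_L 33.2%, with no overlap.

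Cdk2 lies on chromosome 10 (128697939 to 128705031, minus strand). It was measured at 1.81, 3.88, 3.58 and 3.84 in qNSC, 5.52, 5.50, 5.42 and 4.97 in pNSC and 7.51, 7.55, 7.49 and 7.42 in aNSC. It was at 7.48, 7.67, 7.63 and 7.49 in NPC1, 7.30, 7.48 and 7.40 in NPC2, 6.92, 6.98 and 7.04 in NB1 and 4.68, 4.89 and 4.70 in NB2. From qNSC to aNSC the 3 populations did not overlap, and NB2 lay below pNSC and above qNSC. In neurosphere cells Cdk2 was at 6.26, 6.27, 6.18 and 6.19 in DFFDA_H and 6.76, 7.18, 7.02 and 6.83 in DFFDA_L, again without overlap.

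The 2 pocket proteins behaved differently from each other. Rb1, the retinoblastoma protein, is on chromosome 14 (73183673 to 73325822, minus strand) and had libraries from 6.78 to 7.40 in qNSC, 6.40 to 7.23 in pNSC, 6.95 to 7.30 in aNSC and 6.48 to 6.96 in NPC1. They ran from 6.39 to 6.54 in NPC2, 6.28 to 7.01 in NB1 and 6.08 to 6.50 in NB2. The first 4 of these populations overlapped, and none of the steps between neighbouring populations of the sequence passed for Rb1. Its largest fresh difference tested was -0.91 ± 0.19 in NB2 minus qNSC (limma adjusted p = 0.000150). Neurosphere libraries ran from 7.44 to 7.80 in DFFDA_H and 7.58 to 7.75 in DFFDA_L, above every fresh library. Of the Rb1 exonic length, 8.11% is shared with Rcbtb2 on the opposite strand, which averaged 5.91 in DFFDA_H and 6.00 in DFFDA_L against 6.36 to 7.68 in the fresh populations. A further 6.78% is shared with Lpar6, which sits within Rb1 on the opposite strand and averaged 7.40 in DFFDA_H and 7.39 in DFFDA_L against 3.73 to 4.92 in the fresh populations. The part of both in the Rb1 values was not tested.

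Rbl1 encodes p107, a pocket protein that is abundant in cycling cells, and lies on chromosome 2 (157145893 to 157204534, minus strand). It was measured at 1.98, 3.08, 3.68 and 3.72 in qNSC, 5.89, 4.87, 4.82 and 4.47 in pNSC and 6.64, 6.63, 6.67 and 6.67 in aNSC. It was at 6.34, 6.59, 6.46 and 6.56 in NPC1, 6.13, 6.41 and 6.29 in NPC2, 6.15, 6.21 and 6.08 in NB1 and 4.21, 4.34 and 4.21 in NB2. The aNSC libraries nearly coincided and lay above all other libraries, and NB2 lay below every NB1 library. In neurosphere cells it was at 5.82, 5.89, 5.71 and 5.56 in DFFDA_H and 6.31, 6.41, 6.47 and 6.32 in DFFDA_L, with no overlap. Rbl2 (p130), the pocket protein known for quiescent cells, moved the other way from Rbl1, with -0.65 in aNSC minus qNSC (limma adjusted p = 0.00414) and 0.33 in DFFDA_H minus DFFDA_L (limma adjusted p = 0.0107).

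Cdk2 and Rbl1 had the most alike profiles of any pair of the 10 genes over the 10 populations. Their group means had a Pearson r of 0.991 over 10 populations and 0.995 over the 7 named ones, as a description of means that share libraries and scaling. The gene ranked most like Cdk2 among 12827 genes by this measure was Rbl1, followed by Hells. For Rbl1 it was Cdk2, also followed by Hells. Promoter windows from RefSeq (GRCm38.p6), 250 bases before to 50 bases after a start, were given for 6 of the 10 genes, Rbl1, Cdk2, Ccne1, Cdk4, Cdk6 and Ccnd3, the last with 2 windows. They were searched on both strands for 4 E2F words, TTTCCCGC, TTTGGCGC, TTTCGCGC and TTTGCCGC. A word occurred in the windows of Rbl1 and Cdk2 and in 2.26% of all 32851 windows, and no match overlapped another. The windows of these 2 genes are shown because their transcripts moved together, and that of Ccne1 for comparison, since none of these words occurs in its window although its profile was close to both. Each reads 5′ to 3′ on the gene's strand (minus for all 3), with the matched word in capitals.
Rbl1, chr2:157204485-157204784: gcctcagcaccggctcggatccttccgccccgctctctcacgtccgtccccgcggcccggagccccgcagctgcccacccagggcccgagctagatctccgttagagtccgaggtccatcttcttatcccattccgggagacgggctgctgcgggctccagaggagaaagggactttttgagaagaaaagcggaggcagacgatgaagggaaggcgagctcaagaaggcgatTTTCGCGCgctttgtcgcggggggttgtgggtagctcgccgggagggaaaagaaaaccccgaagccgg
Cdk2, chr10:128705002-128705301: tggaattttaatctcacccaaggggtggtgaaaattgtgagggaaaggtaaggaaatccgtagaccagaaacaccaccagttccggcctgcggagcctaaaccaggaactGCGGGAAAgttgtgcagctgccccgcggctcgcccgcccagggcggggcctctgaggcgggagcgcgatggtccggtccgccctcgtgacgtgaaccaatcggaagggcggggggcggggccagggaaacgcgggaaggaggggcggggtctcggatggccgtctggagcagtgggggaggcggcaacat
Ccne1, chr7:38107441-38107740: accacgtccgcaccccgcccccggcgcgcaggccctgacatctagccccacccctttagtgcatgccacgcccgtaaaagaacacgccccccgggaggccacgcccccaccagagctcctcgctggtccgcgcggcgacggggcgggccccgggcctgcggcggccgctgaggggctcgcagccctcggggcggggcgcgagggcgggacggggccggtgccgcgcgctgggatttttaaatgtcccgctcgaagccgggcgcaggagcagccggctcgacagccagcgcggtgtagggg
The Rbl1 word starts at position -18 from the start site. The Cdk2 word, read as the reverse complement of TTTCCCGC, starts at -140. A match is a description of letters, and no binding was measured.

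pNSC stood above qNSC in most of the G1 genes. Of the 10 genes 8 were higher in pNSC, and the other 2, Ccnd3 (-0.15) and Rb1 (-0.27), did not pass. Over all 17788 genes tested, 22.3% were called in either direction, 14.2% higher and 8.06% lower. The median difference of the 10 genes was 1.84, against -0.05 over all genes. Ccne1 rose by 3.40 ± 0.55 (limma adjusted p = 5.91e-05), Cdk6 by 2.35 ± 0.48 (1.62 without qNSC replicate 2) and Cdk4, the least of the 8, by 0.96 ± 0.13 (limma adjusted p = 1.03e-05). The count stayed at 8 without pNSC replicate 1 and without qNSC replicate 1, with Ccnd2 at 1.80 and 2.17 in place of 2.18. Fitting only the 8 libraries compared left 6, since Cdk6 and Ccne2 no longer passed (limma adjusted p = 0.0660 and 0.0527). Over all genes that fit called 1511, against 3959 with all fresh libraries. The summed neuroblast markers also ran higher in pNSC, from 434 to 1388, than in qNSC, from 111 to 188, and the part of these and of the microglial markers in the differences was not tested.

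aNSC were higher again than pNSC. Of the 10 genes 9 were higher, against 48.3% of all genes called in either direction, 28.4% higher and 19.9% lower, and Rb1 did not pass. Cdk6 rose by 2.76 ± 0.48, Ccnd1 by 2.37 ± 0.39 and Cdk4 by 1.68 ± 0.13 (limma adjusted p = 3.34e-05, 1.62e-05 and 1.45e-10). The call of Ccnd3, at 0.34 ± 0.13 (limma adjusted p = 0.0389), was lost without pNSC replicate 1 or 4 and without aNSC replicate 1, 2 or 4 (limma adjusted p = 0.169, 0.0636, 0.1, 0.0638 and 0.0653). It was also lost with centring on the median ratio and with library weights (limma adjusted p = 0.504 and 0.0974). Fitting only the 2 populations lost it too, as did limma without trend and robust variances (limma adjusted p = 0.0610 and 0.0516). In all, the Ccnd3 call was lost in 9 of 17 alternative settings. Over the whole step, 8 genes were higher in aNSC than in qNSC, against 62.3% of all genes called, 35.3% higher and 27.1% lower. The 8 differences ran from 2.64 for Cdk4 to 5.72 for Ccne1, while Ccnd3 and Rb1 differed by 0.18 and -0.03 (limma adjusted p = 0.240 and 0.910).

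**Figure D4:**
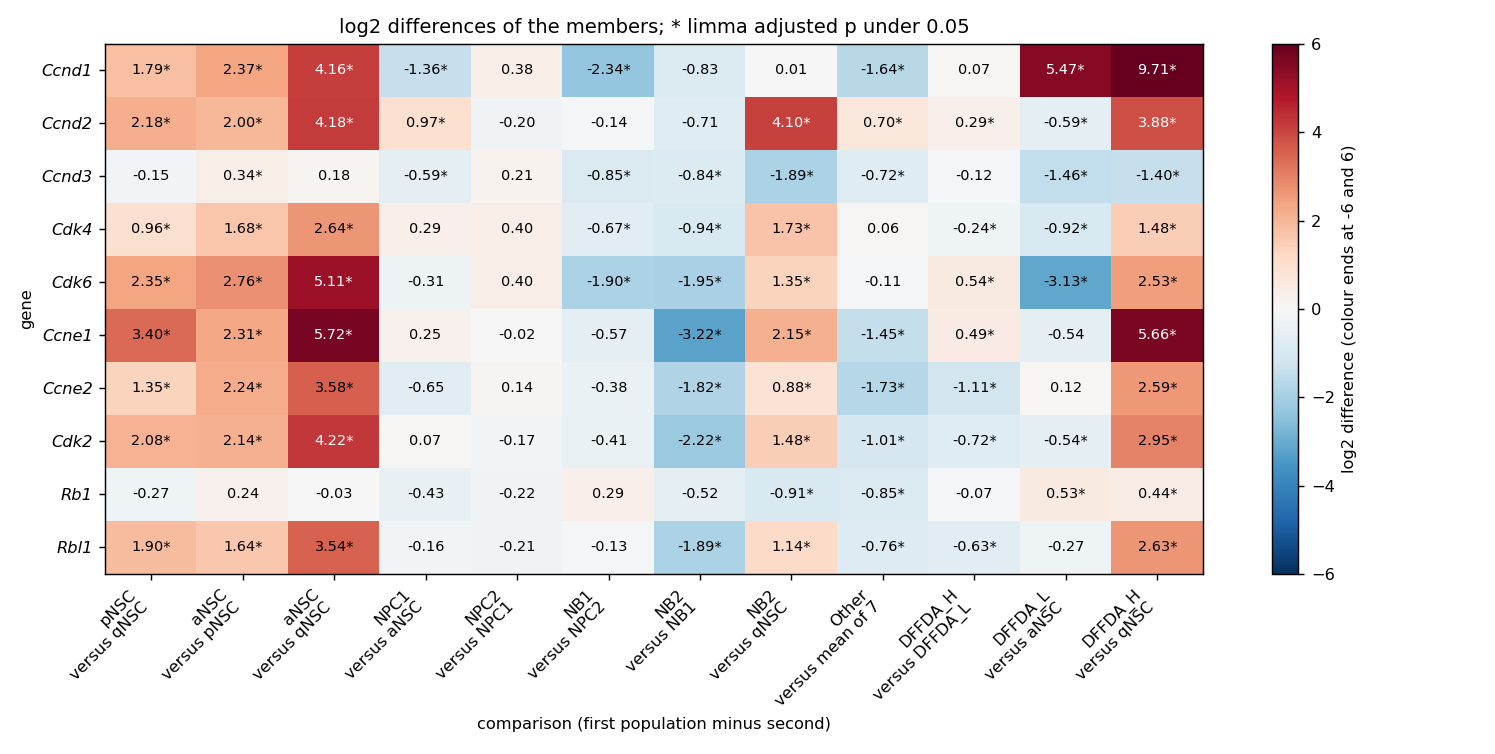
log2 differences (first population minus second) of the 10 genes in 12 comparisons, as numbers and colours from blue (lower) to red (higher), with an asterisk where the limma adjusted p was under 0.05. From qNSC through pNSC to aNSC nearly all entries are positive, from NB1 to NB2 all are negative, and the last 2 columns show Ccnd1 at 5.47 and 9.71.

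From aNSC to the NPC populations the cyclin mix shifted while most of the 10 genes did not pass. In NPC1 minus aNSC, Ccnd2 was higher by 0.97 ± 0.25, and Ccnd1 and Ccnd3 were lower, with -1.36 ± 0.39 and -0.59 ± 0.13 (limma adjusted p = 0.00932, 0.0200 and 0.00360). These 3 of 10 stand against 12.7% of all genes called, 6.24% higher and 6.48% lower. The call of Ccnd1 was lost without aNSC replicate 1 or 3 or NPC1 replicate 1 (limma adjusted p = 0.0506, 0.0547 and 0.0770), and its libraries did not overlap between the 2 populations. When only the 8 libraries compared were fitted, 7 passed, adding Ccne2 (-0.65), Rb1, Cdk4 and Cdk6. Over all genes that fit called 5080, against 2262 with all fresh libraries. In NPC2 minus NPC1 limma called 0 of the 10 genes, against 1.34% of all genes (0.202% higher and 1.14% lower), and 1 gene, Cdk4, had an unadjusted p under 0.05. Fits of only these 2 populations and fits with library weights each called 1 of the 10 genes, Cdk4. Over all genes they called 578 and 2180, against 239 without these changes.

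NB1 were lower than NPC2 in Ccnd1, Ccnd3, Cdk4 and Cdk6. Ccnd1 differed by -2.34 ± 0.45, Cdk6 by -1.90 ± 0.55, Ccnd3 by -0.85 ± 0.15 and Cdk4 by -0.67 ± 0.15 (limma adjusted p = 0.00115, 0.0321, 0.000670 and 0.00653). These 4 of 10 stand against 7.67% of all genes called, 3.88% lower and 3.78% higher. Ccnd2, both E cyclins, Cdk2, Rb1 and Rbl1 did not pass, with values from -0.57 (Ccne1) to 0.29 (Rb1). With only the 2 populations fitted 6 passed, adding Ccne1 and Cdk2 (limma adjusted p = 0.0183 and 0.0218), and with library weights 7, adding Ccne2, Cdk2 and Rb1 (limma adjusted p = 0.0220, 0.00459 and 0.00355). Over all genes these fits called 2888 and 6234, against 1364 without these changes. The call of Cdk6 was lost without NPC2 replicate 1, 2 or 3 and without NB1 replicate 1 or 2, with differences from -1.92 to -1.74 (limma adjusted p from 0.0765 to 0.131), and its libraries did not overlap.

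NB2 were lower than NB1 in Ccne1, Ccne2, Cdk2, Cdk4, Cdk6, Rbl1 and Ccnd3. Of the 10 genes 7 fell, against 24.6% of all genes called, 14.2% lower and 10.4% higher, and the median of the 10 was -1.38 against -0.03 over all genes. Ccne1 fell by 3.22 ± 0.63, Cdk2 by 2.22 ± 0.31 and Cdk6 by 1.95 ± 0.55 on the log2 scale (limma adjusted p = 0.000423, 5.67e-06 and 0.0105). Rbl1 had -1.89, Ccne2 -1.82, Cdk4 -0.94 and Ccnd3 -0.84. Ccnd1, Ccnd2 and Rb1 did not pass, with -0.83, -0.71 and -0.52 (limma adjusted p = 0.185, 0.0705 and 0.0577). Ccnd1 and Ccnd2 passed with only the 2 populations fitted (9 genes, limma adjusted p = 0.0421 and 0.0103) and with library weights (10 genes, limma adjusted p = 0.00553 and 7.58e-05). Over all genes these fits called 6690 and 9015, against 4371 without these changes. Rb1 passed with library weights (limma adjusted p = 2.59e-05), without NB1 replicate 3 or NB2 replicate 3 (-0.77 and -0.66, limma adjusted p = 0.00832 and 0.0421) and with a replicate block (limma adjusted p = 0.0288).

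NB2 and qNSC differed in 9 of the 10 genes, and nothing about the 10 as a set is read from that count. In NB2 minus qNSC 7 genes were higher and Ccnd3 (-1.89 ± 0.14) and Rb1 (-0.91 ± 0.19) lower, against 68.3% of all genes called, 39.4% higher and 28.8% lower. Among the higher genes the largest after Ccnd2 were Ccne1 at 2.15, Cdk4 at 1.73 and Cdk2 at 1.48 (limma adjusted p = 0.00236, 7.65e-11 and 5.94e-05). Without qNSC replicate 1 Ccne1 was at 1.26 (limma adjusted p = 0.00577). Cdk6, at 1.35 (limma adjusted p = 0.0227), did not pass without qNSC replicate 2 (0.62, limma adjusted p = 0.145) or NB2 replicate 1 (1.3, limma adjusted p = 0.0600), nor under median-ratio centring (1.13, limma adjusted p = 0.0532). When only the 2 populations were fitted Cdk6, Ccne1 and Ccne2 did not pass (limma adjusted p = 0.142, 0.0645 and 0.0588). That fit called 6 of the 10 genes. Over all genes it called 11074, against 12145 with all fresh libraries.

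Other genes of the pathway were read beside the 10. Of 15 E2F target genes of S phase all 15 were higher in pNSC minus qNSC, aNSC minus pNSC and aNSC minus qNSC. Over all genes 14.2%, 28.4% and 35.3% were higher in these comparisons. The medians of the 15 were 2.51, 2.25 and 4.99, against -0.05, 0.22 and 0.19 over all genes. In NB2 minus NB1, 13 of 15 were lower (median -2.45), against 14.2% of all genes. In DFFDA_H minus DFFDA_L all 15 were lower, against 22.3% of all genes (median -1.24 against -0.01 over all genes). Among them were the replication licensing factor Mcm5 at -1.31 and the ribonucleotide reductase subunit Rrm2 at -1.44. Of 11 other pocket protein and E2F genes, 8 were higher and 2 lower in aNSC than in qNSC; the activator E2f1 had 5.12 and the atypical repressor E2f8 5.57, while Rbl2 and E2f5 (-0.44) were lower. Over all genes 35.3% were higher and 27.1% lower in that comparison. In DFFDA_H minus DFFDA_L 7 of the 11 were lower and 2, Rbl2 and E2f6 (0.43), higher, where 22.3% of all genes were lower and 21.6% higher.

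CDK inhibitors bind these kinases or their cyclin complexes and block them. Of 7 listed 6 were tested in the fresh libraries, and 3 were higher in aNSC than in qNSC, Cdkn1a (p21) at 4.20, Cdkn1c (p57) at 4.04 and Cdkn2c (p18) at 2.97, while Cdkn1b (p27) did not pass at 0.41. That is 3 of 6, where 35.3% of all genes were higher and 62.3% called, so nothing about these inhibitors as a group is read from the count. In DFFDA_H minus DFFDA_L, Cdkn1a, Cdkn2a and Cdkn2b were higher at 0.50, 1.18 and 1.95, and Cdkn2c was lower at -0.82, against 43.8% of all genes called. Of 10 other G1 to S regulators 9 were higher in aNSC than in qNSC, against 35.3% of all genes, with the CDK subunit Cks1b at 5.02 and the phosphatase Cdc25a, which activates CDK2, at 3.65. In DFFDA_H minus DFFDA_L, 4 of the 10 were lower, against 22.3% of all genes, including the ubiquitin ligase receptors Skp2 at -1.12 and Dtl at -1.33.

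DFFDA_H and DFFDA_L neurosphere cells differed in 7 of the 10 genes, in both directions, against 43.8% of all 15956 genes called, 21.6% higher and 22.3% lower. Ccne2, Cdk2, Rbl1 and Cdk4 were lower in DFFDA_H, with -1.11 ± 0.12, -0.72 ± 0.10, -0.63 ± 0.09 and -0.24 ± 0.07 (limma adjusted p = 1.87e-05, 6.30e-05, 0.000123 and 0.0133). Cdk6, Ccne1 and Ccnd2 were higher, with 0.54 ± 0.15, 0.49 ± 0.09 and 0.29 ± 0.10 (limma adjusted p = 0.0112, 0.000948 and 0.0259). Ccnd1, Ccnd3 and Rb1 did not pass. The call of Ccnd2, whose ranges overlapped, was lost without DFFDA_H replicate 3 or 4 and without DFFDA_L replicate 2 or 3 (limma adjusted p = 0.0660, 0.0772, 0.0725 and 0.0782). With the spread estimated over all 36 libraries 2 of the 10 passed, Ccne2 and Cdk2. That fit called 3234 of 19158 genes over all, against 6995 of 15956 with the 8 neurosphere libraries. Oligodendrocyte precursor markers (5 genes, summed) ran from 106 to 133 in DFFDA_H and 153 to 323 in DFFDA_L, against at most 41.0 in any fresh library; their part in these values was not tested.

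Set beside fresh cells, DFFDA_L differed from aNSC in 7 of the 10 genes, near the share over all 19158 genes (70.1% called, 31.4% higher and 38.7% lower). Nothing about the 10 genes as a set is read from that count. Ccnd1 and Rb1 (0.53) were higher and Ccnd2, Ccnd3, Cdk4 (-0.92), Cdk6 and Cdk2 (-0.54) lower. Ccne1, Ccne2 and Rbl1 did not pass, with -0.54, 0.12 and -0.27. With only these 2 populations fitted and with library weights 9 passed in each, adding Ccne1 (limma adjusted p = 0.000355 and 0.0238) and Rbl1 (limma adjusted p = 0.00473 and 0.0405). Over all genes these fits called 14180 and 15363, against 13434 without these changes. Under median-ratio centring 5 passed, without Ccnd2 (-0.40, limma adjusted p = 0.1) and Cdk2 (-0.36, limma adjusted p = 0.175). The Cdk2 call (limma adjusted p = 0.0427) was lost without any one of aNSC replicates 1 to 4 and without DFFDA_L replicate 1, 3 or 4, at limma adjusted p from 0.0561 to 0.103. The Ccnd2 call (limma adjusted p = 0.0210) was lost without aNSC replicate 3 or DFFDA_L replicate 2 or 3 (limma adjusted p = 0.0796, 0.0512 and 0.0512). Against qNSC, DFFDA_H was called in all 10 genes (74.2% of all genes called, 37.2% higher and 36.9% lower), Ccnd3 lower and the other 9 higher, among them Ccne1 at 5.66 (4.77 without qNSC replicate 1), Cdk2 at 2.95 and Rbl1 at 2.63. The Rb1 call (0.44, limma adjusted p = 0.0148) was lost without qNSC replicate 1 (0.31, limma adjusted p = 0.0833) or DFFDA_H replicate 1 (0.36, limma adjusted p = 0.0594). Culture and every other difference between the 2 sets of libraries cannot be told apart.

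The contrast of DFFDA_H with DFFDA_L differed from that of qNSC with aNSC in 8 of the 10 genes. The 2 differences were compared in 1 model over 36 libraries, in which 42.3% of all genes were called, 24% higher and 18.3% lower. For Ccne1, DFFDA_H minus DFFDA_L was 0.49 and qNSC minus aNSC -5.72, a difference of 6.21 ± 0.69 (limma adjusted p = 1.03e-08). For Cdk6 the 2 values were 0.54 and -5.11, a difference of 5.65 ± 0.61 (limma adjusted p = 5.99e-09). Over 25 alternative settings these differences ran from 5.30 to 6.69 for Ccne1 and 4.92 to 6.15 for Cdk6, and both kept their call. Among the qNSC libraries, replicate 1 was at its floor for Ccne1 and replicate 2 at -0.14 for Cdk6. Ccnd2 and Ccnd1 likewise had 0.29 and 0.07 against -4.18 and -4.16 (limma adjusted p = 1.30e-12 and 1.07e-08). Ccne2, Cdk2, Rbl1 and Cdk4 kept the sign of the fresh difference at a smaller size, with differences between the 2 contrasts of 2.48, 3.50, 2.90 and 2.40 (limma adjusted p = 3.54e-07, 7.24e-10, 4.88e-08 and 1.08e-12). Ccnd3 and Rb1 did not pass, with 0.06 and -0.09 (95% intervals -0.34 to 0.45 and -0.55 to 0.37).

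**Figure D5:**
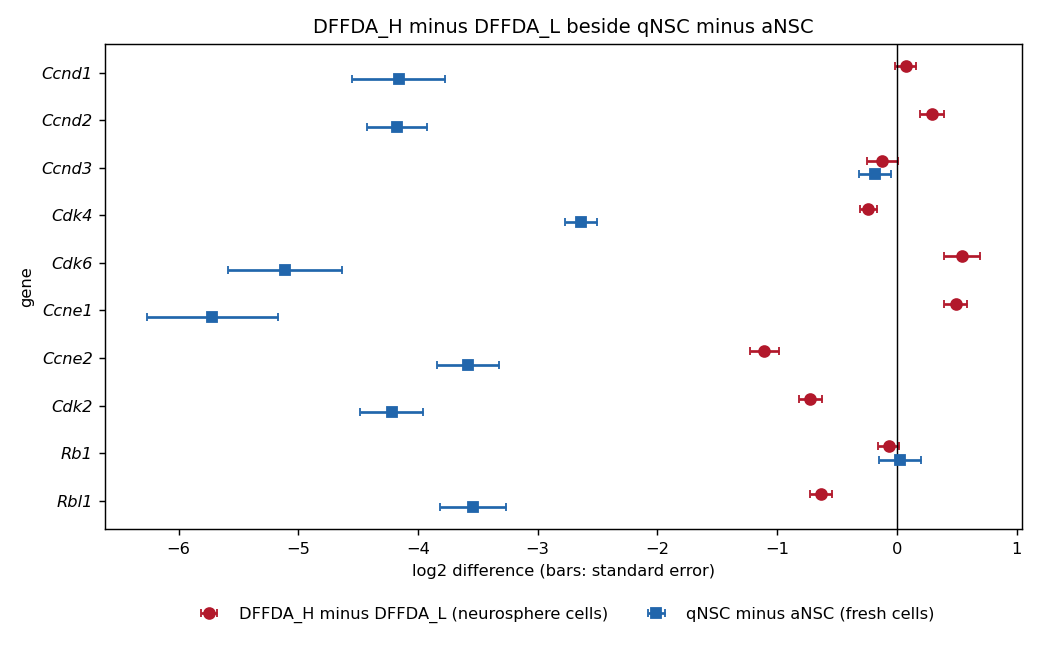
log2 differences of DFFDA_H minus DFFDA_L (red circles, 4 libraries each) and qNSC minus aNSC (blue squares, 4 libraries each) for the 10 genes, with bars of 1 standard error. The red values lie between -1.11 and 0.54, and 8 of the blue ones between -5.72 and -2.64, with Ccnd3 and Rb1 near 0 in both.

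The population named Other was set against the average of the 7 named fresh populations, each given the same weight. In Other, 7 of the 10 genes were lower and Ccnd2 was higher, against 54.3% of all genes called, 28.4% lower and 25.9% higher. Ccne2 had -1.73 ± 0.22, Ccnd1 -1.64 ± 0.34 and Ccne1 -1.45 ± 0.47 (limma adjusted p = 5.43e-07, 0.000205 and 0.0117). The 3 libraries gave 4.12, 3.35 and 3.71 for Ccne2, 2.43, 2.05 and 0.22 for Ccnd1 and 2.82, 3.75 and 2.81 for Ccne1, so Ccnd1 was lowest in replicate 3. That library stood apart with 56 distinct values below the median gene, against 162 and 185 in replicates 1 and 2, and with a sum of 433 for 4 red cell markers, and without it the Ccnd1 difference was -0.97 (limma adjusted p = 0.0185). Ccnd2 stood at 12.12, 12.72 and 12.30 in the 3 libraries, 0.70 ± 0.21 above the mean of the 7 named populations (limma adjusted p = 0.00746). Cdk4 and Cdk6 did not pass at 0.06 and -0.11. The calls of Ccnd2 and Rbl1 were lost without Other replicate 2 (0.53 and -0.56, limma adjusted p = 0.0907 and 0.108), and that of Ccne1 without Other replicate 1 or 3 (-1.3 and -1.29, limma adjusted p = 0.0663 and 0.0749). Endothelial markers (8 genes, summed) ran from 726 to 2031 in Other and reached at most 19.6 in any library of another population, and neuroblast markers ran from 5566 to 8048 in Other. The sums there ran from 139 to 1882 for mural cells (5 genes), 640 to 1107 for microglia and 37.7 to 433 for red cells (4 genes). By limma all 8 endothelial, 7 neuroblast and 5 mural markers, 8 of 10 microglial and 3 of 4 red cell markers were higher in Other, and their part in these values was not tested.

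Over the 7 named populations the profiles of Ccne1, Ccne2, Cdk2, Rbl1 and Cdk6 were alike, with Pearson r of their group means from 0.967 (Ccne1 and Cdk6, and Cdk6 and Rbl1) to 0.996 (Ccne1 and Cdk2). Ccnd3 and Rb1 stood aside from them, with r from 0.152 to 0.300 for Ccnd3 and from -0.157 to -0.025 for Rb1 against these 5. Cdk4 followed Ccnd2 most closely, with r of 0.956, which over all 10 populations was 0.926. Adding the neurosphere populations and Other lowered the r of Ccnd1 with Cdk6 to 0.117 over 10 populations, against 0.904 over 7. These describe 7 or 10 means that share libraries and one scaling. Outside the set, the genes whose 10 group means were most like each member's were Tubb6 for Ccnd1 (r of 0.991), Eif1ad for Ccnd2 (0.983), Pcgf5 for Ccnd3 (0.970), E130317F20Rik for Cdk4 (0.989), Nme4 for Cdk6 (0.986), 4930579G24Rik for Ccne1 (0.993), Pitpnb for Ccne2 (0.987) and Tmed2 for Rb1 (0.978).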

How the data were processed

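The deposited table holds log2 expression values per gene, made by the authors. HISAT2, featureCounts, limma, Trimmomatic, cutadapt and FastQC are listed in the submitters' processing notes with neither role nor version, as are the build names mm10 and GRCm38. SMARTer amplification of poly(A) RNA and Nextera XT library preparation are given in the labels' protocols. Equal maxima and near-equal medians show that the values share 1 distribution over 36 libraries, which removes differences in total RNA and makes high genes take tied steps. Counts and depth are not given, so no counting error is stated. Blank lines (1770) were dropped.

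Tests used limma 3.58.1 in R 4.3.3 with trended, robust variances and Benjamini-Hochberg adjustment over all genes of each comparison. A gene entered if it reached 0 on the log2 scale in 3 or more libraries of some group, over the 28 fresh, the 8 neurosphere or all 36 libraries. The design allowed for a count test, and the file holds log2 values. The model was checked on simulated data in which each gene had the same spread in every group. The measured groups differ in spread (for Ccne1 an SD of 1.90 in qNSC and 0.14 in aNSC). That check therefore cannot show how unequal spread moves the calls. Tables and figures used Python 3.11.15, pandas 2.3.3, numpy 2.4.6 and matplotlib 3.10.9. Gene positions and exonic lengths came from GENCODE M21, to which 19863 identifiers matched. Levels per length divide the linear value by the union of exons.

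All 10 genes are reported in every comparison. The genes and pathway lists were chosen with earlier results of these data known. From a list up to 4 genes with the smallest p are named, and Rbl2, E2f5 and E2f6 were named after their values were seen. Likeness used genes with a mean of at least 4 in their highest group. Alternatives covered filters, scaling, library weights, the samples fitted, a replicate block, gene length and each library left out.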

Additional observations from a re-analysis of the deposited data

Results flagged for a closer look

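In 60 checks of 1 gene in a group of 4, the gap of 1 library to its nearest neighbour exceeded the 95% critical value of Dixon's ratio in 6, where chance gives about 5%. The ratio was 1.0 for Ccnd1 in DFFDA_L, where replicate 1 had 11.18 and the others 10.97. It was also 1.0 for Ccnd2 in aNSC (replicate 3 at 12.55, the others at 12.12) and in NPC1 (replicate 1 at 13.02, the others at 13.26). In these 3 the other libraries shared 1 value, a step of the common distribution. It was 0.839 for Ccne1 in DFFDA_H (replicate 1 at 6.28, the others from 6.10 to 6.13), 0.909 for Ccne2 in aNSC (replicate 3 at 7.21, the others from 6.86 to 6.89) and 0.855 for Cdk2 in qNSC (replicate 1 at 1.81, the others from 3.58 to 3.88). Aside from these, DFFDA_H minus DFFDA_L and qNSC minus aNSC differed in 8 genes, by the limma test of the difference itself. That test called 42.3% of all genes. The log2 difference between the contrasts was 4.23 for Ccnd1, 4.47 for Ccnd2, 2.40 for Cdk4, 5.65 for Cdk6, 6.21 for Ccne1, 2.48 for Ccne2, 3.50 for Cdk2 and 2.90 for Rbl1.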

How the results depend on the processing

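Of 2420 recomputed values of the 10 genes, 84 changed their call, 37 of them by leaving out 1 library, and none of the called genes changed sign; 96 of 130 pairs of gene and comparison kept their call throughout. Fitting only the groups compared gave 7 genes for NPC1 minus aNSC and 1 for NPC2 minus NPC1, and library weights gave 6 and 1, and 7 for NB1 minus NPC2. The cause was not tested. With all 36 libraries in 1 fit, 2 passed for DFFDA_H minus DFFDA_L. With the longest transcript the log2 ratio of Ccnd1 to Ccnd2 in DFFDA_H was -0.083.

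Leaving out 1 library gave 8 to 8 genes for pNSC minus qNSC, 8 to 9 for aNSC minus pNSC, 2 to 3 for NPC1 minus aNSC, 3 to 4 for NB1 minus NPC2, 7 to 8 for NB2 minus NB1, 6 to 8 for Other, 6 to 7 for DFFDA_H minus DFFDA_L and 5 to 6 for DFFDA_L minus aNSC. The labels do not say that a replicate number marks a shared source, so the numbers were not taken as pairs. In no comparison did every same-numbered pair have a correlation of deviations over 0.1. For aNSC minus pNSC the correlations ran from 0.06 to 0.18, with 3 of 4 over 0.1, and 4 of 4 numbers correlated best with themselves, as did 3 of 4 for pNSC minus qNSC, aNSC minus qNSC and NPC1 minus aNSC and 3 of 3 for NPC2 minus NPC1, a hint from the data and not from the design. A replicate block left 8 genes for pNSC minus qNSC, 9 for aNSC minus pNSC and 8 for NB2 minus NB1, and changed no other call than that of Rb1.

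Counts over all genes varied more. Those called for pNSC minus qNSC numbered 3959, against 1511 with only the groups compared, 2234 with weights and 2432 without pNSC replicate 1. For NPC1 minus aNSC they were 2262, against 5080, 5983 and 1337 (without NPC1 replicate 1). For NPC2 minus NPC1 they were 239, against 578 and 2180, and from 80 upward with a library left out. For NB1 minus NPC2 they were 1364, against 2888 and 6234, and from 763 upward. For NB2 minus NB1 they were 4371, against 6690 and 9015, and for DFFDA_H minus DFFDA_L 6995, against 3234 with all 36 libraries. Centring on the median ratio, chosen after seeing the data, moved the higher share of calls to 51.5% against 63.8% for pNSC minus qNSC, 45.1% against 58.8% for aNSC minus pNSC and 44.8% against 56.6% for aNSC minus qNSC. Under it Ccnd3 and Rb1 in aNSC minus qNSC were -0.12 and -0.33. The unknown depth limits what low values, above all those of qNSC, can show.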
